A study of Mus musculus with 8 samples.

Results

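The cytoplasmic ribosomal protein genes are described here in RNA of peritoneal macrophages, from wild-type (wt) mice and from Card9-/- mice. Members were the array's non-control probes named Rpl or Rps with a number, or Rpsa, Rplp0, Rplp1 or Rplp2, on an autosome, without pseudogene names and without the Rps6k kinases. This gave 81 of 37009 genes on the array, 49 of the large and 32 of the small subunit, read by 171 probes on 720 spots. The family without the autosome rule held 85 names. Rpl10, Rpl36a, Rpl39 and Rps4x, on the X chromosome, were thus outside it.

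Each of the 8 one-colour Agilent arrays held RNA of 1 sample, 4 of wt and 4 of Card9-/- mice, which lack the adaptor that carries signals of fungal receptors such as Dectin-1 to NF-kB. Mice of both genotypes were given 1 ml of 3% thioglycolate, which draws macrophages into the peritoneum, and their peritoneal cells were collected 4 days later. Cells that adhered within 3 h were kept. All animals of both genotypes were also given zymosan (500 mg/kg, 4 h), particles made from yeast cell walls. No untreated group was used here, and age, strain and the kind of Card9 allele are not given in the sources used here. The labels speak of cell pellets from 4 or 5 mice a group without saying how these map to arrays, so p-values measure only the spread between these samples, which may be technical. In such bulk samples, fewer cells of a type and less RNA per cell cannot be told apart.

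A ribosome joins a small subunit, which decodes the mRNA, and a large subunit, which forms peptide bonds, each built from ribosomal RNA and 1 copy of nearly every ribosomal protein. Ribosomal protein mRNAs are among the most abundant of a mammalian cell and typically begin with a pyrimidine tract, the 5' terminal oligopyrimidine motif, through which mTOR and the Larp1 protein control their translation together. Macrophages translate large amounts of cytokine and phagosome proteins after a yeast stimulus. A few members have close relatives made by a separate gene, such as Rps27l beside Rps27.

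The libraries stood apart in ways that their genotypes do not give. Slide 1 carried all 4 wt arrays together with Card9-/- replicate 4, slide 2 carried Card9-/- replicates 1 and 3, and slide 3 carried Card9-/- replicate 2. Between 47.8% and 56.5% of an array's non-control spots were well above background, fewest in Card9-/- replicates 1 and 3, with 0 saturated spots. A level is the log2 processed signal minus the array's 75th percentile, so 0 is that percentile, and a difference is Card9-/- minus wt. Of 8 macrophage markers, 7 were tested, and their mean level was 1.17, 1.42, 6.69 and 5.52 on the wt arrays, in replicate order, against 2.64 to 3.24 in Card9-/-. The libraries labelled wt replicates 1 and 2 thus carried macrophage markers below every Card9-/- library. All 10 T cell markers were higher in Card9-/-, with mean levels of 1.87 to 3.22 against 0.81 to 1.21 in wt, and so were all 7 natural killer cell markers tested (0.80 to 3.34 against -0.81 to 0.12). All 6 red cell markers tested were higher too, with mean levels of 4.13, 2.48, 3.81 and 0.16 in wt and 5.20, 3.14, 3.14 and 6.91 in Card9-/-, lowest in wt replicate 4 and highest in Card9-/- replicate 4. All 4 resident macrophage markers tested were lower, at -0.60, -0.037, 5.71 and 4.31 in wt against 1.06 to 1.45 in Card9-/-. The part of these cell types in the results on ribosomal protein genes was not tested. Card9 itself, at its brighter probe, gave signal well above background in 0 Card9-/- and 3 wt libraries, the library labelled wt replicate 1 being the exception. That library and wt replicate 2 correlated at 0.985 over the genes tested, more closely than any other pair of arrays. They were kept as 2 samples. With both averaged, 79 of 79 members were lower, against 56.5% of all genes, and the members' mean difference was -0.51. Every wt library carried Xist and every Card9-/- library the Y-linked Eif2s3y, so sex and genotype cannot be told apart.

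Of the 81 genes, 79 were tested. The other 2, Rpl10l and Rpl3l, were not well above background on any array; both are relatives of broadly expressed members, Rpl10l known from the testis and Rpl3l from striated muscle. Of the 79, 77 were well above background on all 8 arrays, so the filter on dim probes could have taken in no more than 2 of them through 1 group.

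Nearly all members had a lower mean in the Card9-/- libraries, less uniformly under quantile normalization, a slide block or the series matrix, and 0 of 79 passed the threshold. In replicate order, the 79 genes averaged 7.68, 7.72, 8.08 and 7.30 on the wt arrays and 7.08, 7.27, 6.998 and 7.35 on the Card9-/- arrays. The groups overlapped, since Card9-/- replicate 4 lay above wt replicate 4. These values give 7.69 ± 0.32 in wt and 7.18 ± 0.16 in Card9-/- (SD, n = 4 each), a difference of -0.51. The median difference of the genes was -0.43 (1.34-fold lower), against -0.088 over all 18606 genes tested. In all, 78 of 79 were lower, against 56.3% of all genes tested. Only 53 of 79 were with quantile normalization, 48 of 77 in the authors' series matrix, and 57 of 79 with the slide as a block. Of all genes, 50.9%, 50.7% and 59.6% were lower in the same order. Slides 2 and 3 held no wt array, so the slide block rests on Card9-/- replicate 4 alone against the wt arrays. Relative to the median of all genes, the members' median lay 0.34 log2 units lower, 0.57 lower with normexp background correction, 0.15 lower with quantile normalization and 0.17 lower with the slide as a block. Bright spots as a whole, members among them, shifted too. The 95th percentile of non-control spots lay at 6.01, 6.09, 6.58 and 6.06 in wt and 5.38, 5.69, 5.51 and 5.71 in Card9-/-. The 99th lay at 8.30, 8.30, 8.70 and 7.84 in wt and 7.86, 7.88, 7.81 and 7.96 in Card9-/-. Whether members differ from other genes of like brightness was not tested.

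No member passed an adjusted p of 0.05 in limma over all genes (lowest adjusted p = 0.514), where 0.0269% of all genes did. At an unadjusted p under 0.05, 8 members were lower and 0 higher, against 4.59% and 2.64% of all genes. This count was 2 with quantile normalization, 2 in the series matrix, 15 with median scaling and 24 with normexp. Among all genes, 854 of 18606 were lower at that level, which became 769, 686 of 17237, 1196 and 1018 in the same order. Leaving out 1 array moved the member count from 8 to between 2 (without Card9-/- replicate 3) and 21 (without Card9-/- replicate 4). It was 13 without wt replicate 4 and 3 to 7 without any other. All genes gave 461, 1424 and 668 without those arrays, and 535 to 902 without any other. Every Card9-/- array lay below every wt array for 12 members, against 3.70% of all genes, and above every wt array for 0, against 1.53%. The 12 became 6 with quantile normalization, 3 in the series matrix, 22 with normexp and 30 with median scaling. The 688 of all genes became 507, 439 of 17237, 691 and 1113. Without wt replicate 4 it was 40 members and 1147 genes in all, without Card9-/- replicate 4 it was 28 and 1495. Without Card9-/- replicate 2 it was 19 and 1229, and without any other array 12 to 14 and 772 to 1063. A group of 3 arrays separates more easily than 1 of 4. With weights that downrate arrays that stand apart, 5 of 79 members and 1176 of all 18606 genes were called, about the same share.

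**Figure D1:**
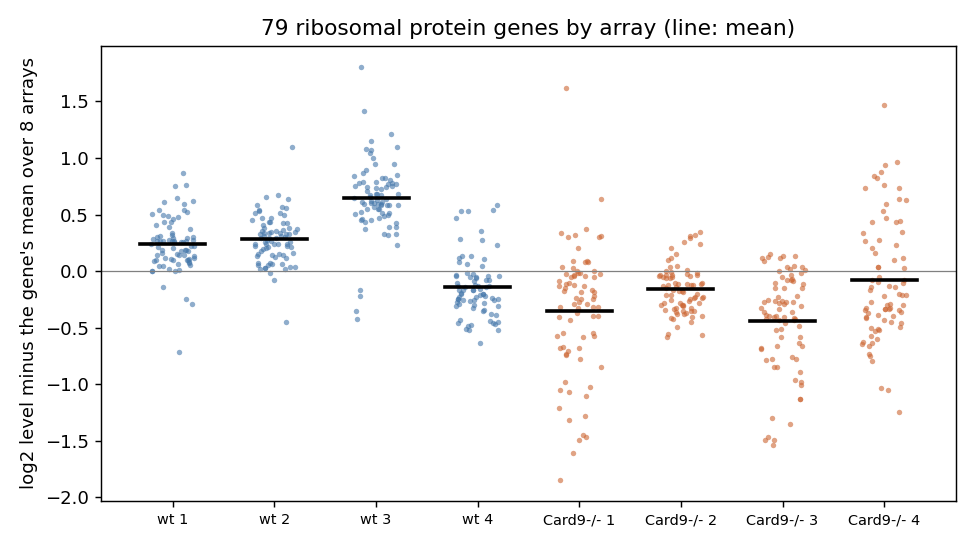
Each point is 1 of 79 ribosomal protein genes, as its log2 level on an array minus its mean over the 8 arrays (y axis), for wt (blue) and Card9-/- (orange), with a line at the mean. Wt replicate 3 is the highest array for most genes, and Card9-/- replicates 1, 3 and 4 spread more widely than Card9-/- replicate 2.

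The arrays did not differ by an even step. Wt replicate 3 gave the highest level for 64 of the 79 members and for 27.04% of all genes. The lowest level was shared among Card9-/- replicate 4 (25 members), replicate 3 (20), replicate 1 (18) and wt replicate 4 (14). Over all genes these arrays gave the lowest level in 22.04%, 12.9%, 12.6% and 11.9%. The 47 large subunit genes had a median difference of -0.40 and the 32 small subunit genes one of -0.43. Their mean levels per array ran in parallel, with differences of -0.52 and -0.50. Without wt replicates 1 and 2, whose macrophage markers were lowest, the members' mean difference was -0.51 with 73 of 79 lower. Without wt replicates 3 and 4 it was -0.52 with 76 lower. Without Card9-/- replicates 1 and 3 it was -0.38 with 77 lower. Of all genes, 55.9%, 54.8% and 57.3% were lower in these fits, in the same order. Repeated spots of 1 probe on 1 array, available for 61 member probes, had a median SD of 0.044, so spot noise is small beside the spread between arrays.

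**Figure D2:**
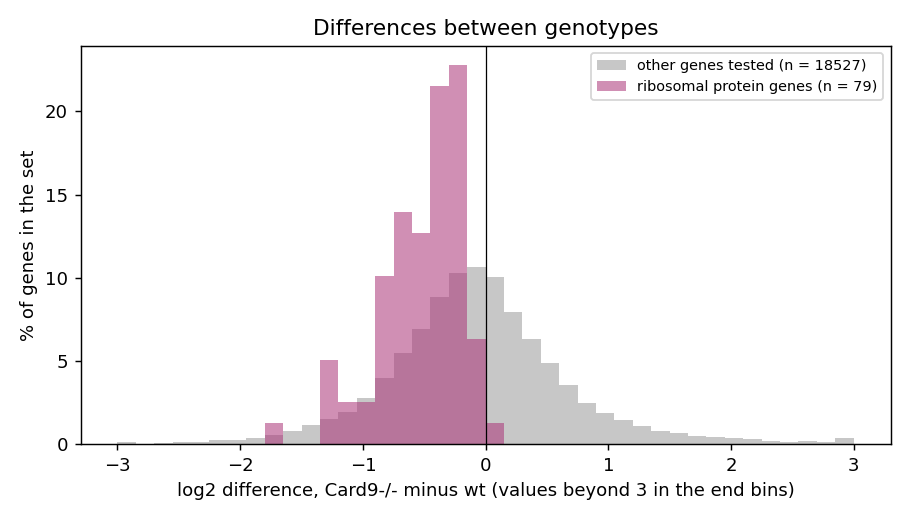
Share of genes (y axis, percent of the set) by log2 difference between genotypes (x axis, Card9-/- minus wt) for the 79 ribosomal protein genes and for all other genes tested. The members lie in a narrower band than the other genes, which starts at -1.76 and falls left of 0 for 78 of 79.

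Among the members with the smallest p-values, Rps27l, a relative of the small subunit protein Rps27 and a p53 target gene, stood furthest from wt. Its probe (chromosome 9, 66795486 to 66797176 in mm9) gave levels of 4.24, 4.87, 5.19 and 4.32 in wt, in replicate order as for all levels that follow, and 2.67, 3.75, 2.65 and 2.54 in Card9-/-. The groups did not overlap, and Card9-/- replicate 2 was apart from the other 3. The difference was -1.76 (SE 0.41), 3.38-fold lower, with an adjusted limma p of 0.514 and an exact two-sided permutation p of 0.0286, the smallest that 70 assignments can give. A second Rps27l probe differed by -1.34, also with no overlap. Leaving out any 1 array gave -2.04 to -1.58. With the slide as a block, which rests on Card9-/- replicate 4 alone, the difference was -2.12. Rps27 itself had levels of 8.85, 8.72, 9.14 and 8.16 in wt and 8.22, 8.26, 8.12 and 8.88 in Card9-/-, which overlapped, a difference of -0.34 (SE 0.36, adjusted p = 0.888) that turned to 0.17 with the slide as a block. Whether the 2 genes differ from each other was not tested. No probe of Rps27l matched one of Rps27 in more than 22 of 60 bases in any ungapped alignment. Of the 20 p53 target genes listed, 14 were lower (median difference -0.48), 0 passed, and 1 was lower and 1 higher at an unadjusted p under 0.05.

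Rpl14, a protein of the large subunit, was read on chromosome 9 (120483487 to 120483546, mm9). Its levels were 8.44, 8.70, 9.45 and 8.77 in wt and 7.62, 8.13, 7.32 and 7.97 in Card9-/-. The groups did not overlap, and the difference was -1.08 (SE 0.37, adjusted p = 0.572). Rps6, the small subunit protein that S6 kinases phosphorylate, had 8.18, 8.22, 8.26 and 7.88 in wt and 7.003, 7.74, 7.08 and 7.61 in Card9-/-. Its groups did not overlap either (difference -0.78, SE 0.33, adjusted p = 0.672). Rpl11, which binds the p53 regulator Mdm2 when ribosome assembly is disturbed, gave 8.50, 8.67, 8.92 and 8.20 in wt and 7.83, 8.07, 7.82 and 7.90 in Card9-/-. It did not overlap and differed by -0.67 (SE 0.32, adjusted p = 0.715).

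Rpl23a and Rpl6, both of the large subunit, separated the groups in the same way, with differences of -0.77 and -0.73 (adjusted p of 0.679 and 0.688). Rpl17, likewise of the large subunit, differed by -0.86 (adjusted p = 0.687) and overlapped, Card9-/- replicate 4 (7.80) lying above wt replicate 4 (7.59). Rps25, which in yeast and human cells serves initiation on several internal ribosome entry sites, had 8.16, 7.93, 8.47 and 7.47 in wt and 5.80, 7.14, 6.10 and 8.13 in Card9-/-. Its difference of -1.21 (SE 0.54, adjusted p = 0.692) came from Card9-/- replicates 1 to 3, since replicate 4 was as high as wt. The same held for Rpl13a, a protein that in human monocytes also represses translation of inflammatory mRNAs: 7.68, 7.79, 7.92 and 7.42 in wt, and 5.67, 7.24, 5.60 and 7.77 in Card9-/- (difference -1.14, SE 0.54, adjusted p = 0.706). Both differences turned to 0.13 and 0.069 with the slide as a block, which rests on Card9-/- replicate 4 alone. Rpl37 had a difference of -1.33 (SE 0.45, adjusted p = 0.572), but its only probe rose well above background on every wt array and on 1 of Card9-/-, and with normexp background correction the difference was 0.22.

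**Figure D3:**
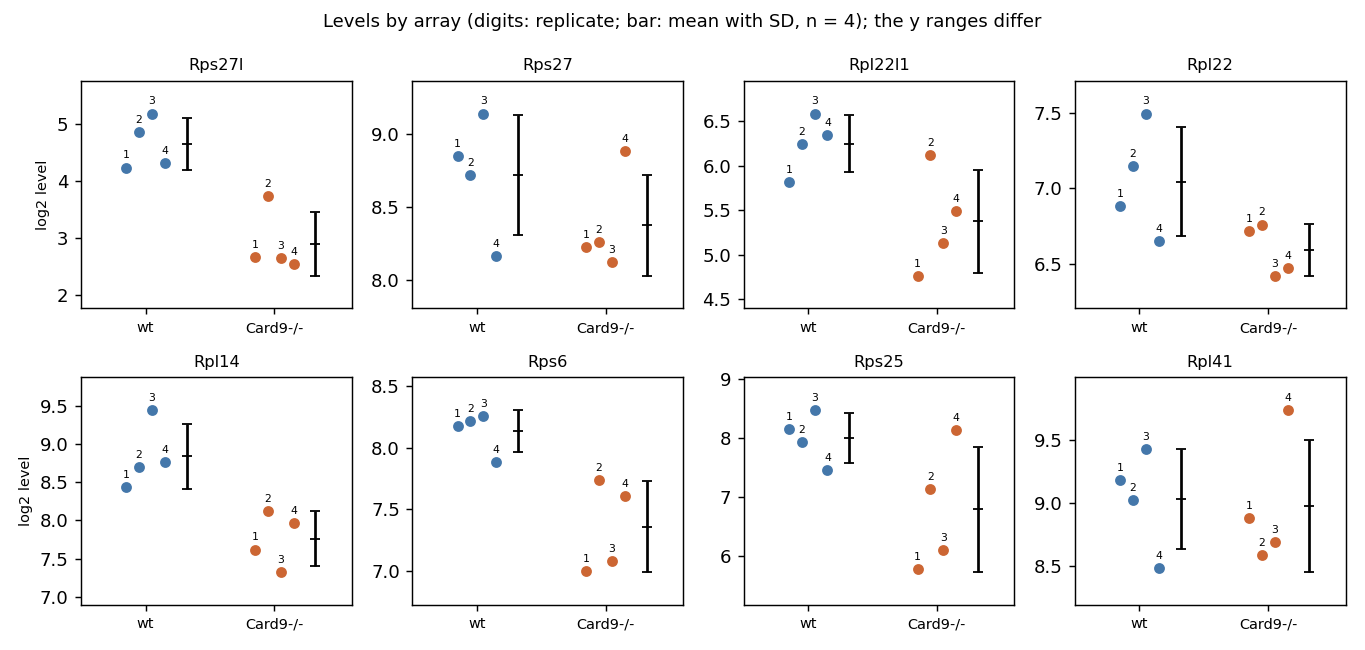
Log2 levels (y axis, a range of its own in each panel) of 8 ribosomal protein genes on each array, by genotype (x axis). Digits give the replicate, and bars the mean with its SD (n = 4). Rps27l, Rpl14 and Rps6 do not overlap between genotypes, while in Rps25, Rps27 and Rpl41 Card9-/- replicate 4 lies as high as the wt arrays.

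Of the other members with a relative, Rpl22l1 gave 5.82, 6.25, 6.59 and 6.34 in wt and 4.76, 6.12, 5.13 and 5.49 in Card9-/-. Card9-/- replicate 2 lay above the lowest wt array, and the difference was -0.87 (SE 0.39, adjusted p = 0.694). Rpl22, the protein it resembles, which is needed for the development of alpha-beta T cells in mice, differed by -0.45 (SE 0.33, adjusted p = 0.834). Rpl36al had 5.51, 5.79, 6.33 and 5.76 in wt and 4.02, 5.44, 3.74 and 5.27 in Card9-/- without overlap (difference -1.23, SE 0.47, adjusted p = 0.614). Rpl36a, which it resembles and which is X-linked, differed by -0.85 (adjusted p = 0.711). Rpl7l1 differed by -0.36 and Rpl7 by -0.19. Rpl39l, known from the testis, differed by -0.37, and X-linked Rpl39 by -0.34. Rpl39l ranged from -3.44 to -0.79 within Card9-/- and turned to 0.13 with normexp. Rps4l differed by -0.42, where 1 array, wt replicate 3 at 3.38, lay over 1.5 log2 units above every other. Without it the difference was 0.11. Rpl3 differed by -0.22. With quantile normalization Rpl22 and Rpl3 turned to 0.13 and 0.23.

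Members named for their mean signal, which is a probe's brightness and gives no order between genes, were Rpl41, Rps16, Rpl37a and Rps18. Rpl41, the smallest ribosomal protein, gave 9.18, 9.02, 9.43 and 8.49 in wt and 8.88, 8.59, 8.69 and 9.73 in Card9-/-. Its difference of -0.056 (SE 0.39, adjusted p = 0.992) became 0.70 with the slide as a block, where it rests on Card9-/- replicate 4. Rps16, Rpl37a and Rps18 differed by -0.25, -0.30 and -0.76, with adjusted p of 0.786 to 0.915. With the slide as a block Rpl37a and Rps18 turned to 0.29 and 0.15.

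The result for a gene depended on which of its probes was read. In 55 members more than 1 probe was tested, and the lowest and highest difference of a gene lay a median of 0.58 log2 units apart. In 13 members they lay over 1 unit apart, and in 8 of these the probes also differed in sign. One set of probes, those that hold the hexamer AATAAA of the polyadenylation signal, often gave other values than a further probe of the same gene. They are called end probes here, although the hexamer alone does not place a probe at an mRNA's 3' end. A dim Rpl13 probe on an Ensembl transcript holds it upstream of that gene's other hexamer probe. To show where such pairs lie, the last 30 bases of each probe, or the 30 from the hexamer on where it lies earlier, are given for 3 genes chosen after their values were seen, 5' to 3' in the sense of the mRNA, with the hexamer in capitals.
Rps10 other probe: tcagtgaagttggagtttatgttgtattga
Rps10 end probe: gttgtattgAATAAActttaaagaaaaaca
Rps3 other probe: tggagaccctgttaactactatgtcgacac
Rps3 end probe: gatgctaccttgtaaagacatttAATAAAa
Rps3a1 other probe: agacatcctatgcgcagcaccagcaagtcc
Rps3a1 end probe: gatttttaatagtgacaAATAAAaagtcct

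The Rps10 pair shares 40 of its 60 bases (chromosome 17, 27767387 to 27767446 and 27767367 to 27767426, minus strand, mm9). The other probe gave 9.03, 9.10, 9.89 and 8.84 in wt and 8.32, 8.85, 8.11 and 8.99 in Card9-/-. The end probe gave 8.20, 8.06, 8.44 and 7.40 in wt and 5.93, 6.80, 5.87 and 8.33 in Card9-/-. Both were lowest on Card9-/- replicates 1 and 3, the end probe by more. End probe minus other probe was -0.82, -1.05, -1.45 and -1.43 in wt and -2.39, -2.05, -2.23 and -0.66 in Card9-/-.

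In Rps3a1, a small subunit protein, the other probe (chromosome 3, 85943041 to 85943100, mm9) was nearly level across the arrays. It gave 7.12, 7.24, 6.59 and 6.68 in wt and 6.56, 6.96, 6.85 and 6.47 in Card9-/-. The end probe (85941875 to 85941934) gave 7.31, 6.75, 7.68 and 6.41 in wt, and 4.29, 5.78, 4.43 and 7.93 in Card9-/-. Read by the end probe, Rps3a1 would differ by -1.43, and by the other probe by -0.20. The 2 further Rps3a1 probes, without the hexamer, lay between these in position as in value. They differed by -1.05 (85942007 to 85942438) and -1.34 (85941887 to 85941946). The second, which overlaps most of the end probe, gave 4.83, 5.92, 4.79 and 7.28 in Card9-/-. The part of the hexamer in the contrast was not tested. In Rps3, a small subunit protein that in human cells is also a partner of NF-kB, the end probe (chromosome 7, 106627408 to 106627786) gave 7.22, 7.14, 7.57 and 6.75 in wt and 5.36, 6.04, 5.24 and 6.89 in Card9-/-. It differed by -1.29, and the other Rps3 probe by -0.23.

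**Figure D4:**
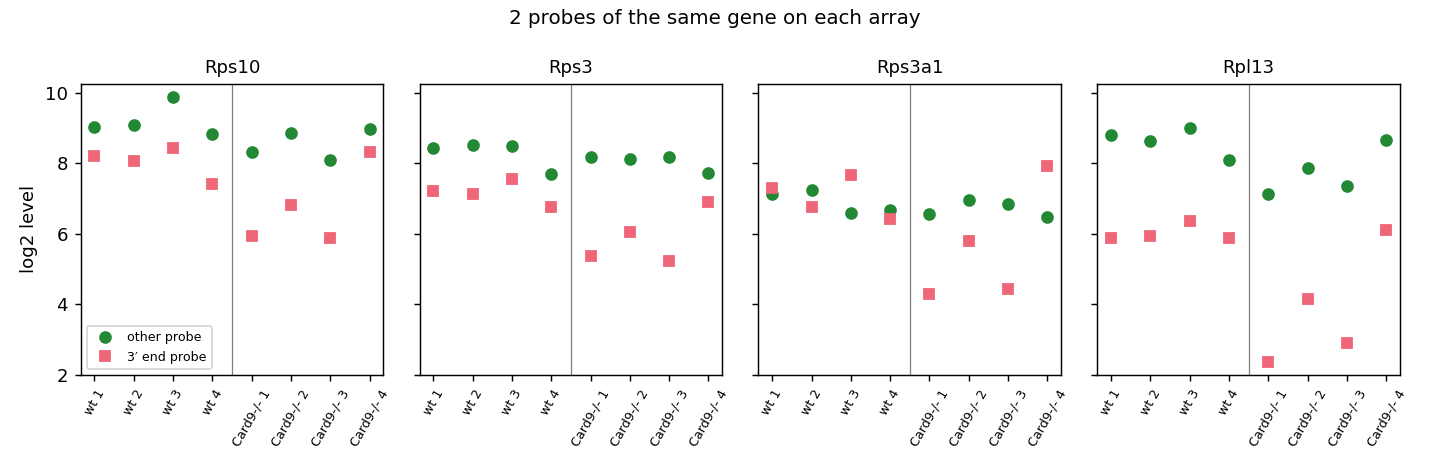
Log2 levels (y axis) on each array (x axis) of the 3' end probe (squares) and another probe (circles) of 4 ribosomal protein genes. The end probes are lowest on Card9-/- replicates 1 and 3 and lie within or above the wt range on Card9-/- replicate 4.

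Pairs of an end probe and the brightest other probe on a RefSeq mRNA were available for 17 members and 1300 other genes. Centred on each gene's mean, the gap between the end probe and the other probe had a median in members of 0.33, 0.040, 0.27 and 0.020 on the wt arrays. On the Card9-/- arrays it was -0.67, -0.19, -0.75 and 0.80. In the other genes these medians were -0.098, 0.031, 0.36 and 0.15 in wt and -0.059, -0.011, -0.34 and 0.030 in Card9-/-. The low gaps in members lay on the 2 arrays of slide 2, which also had the fewest spots well above background, and the high gap on the Card9-/- array of slide 1. Card9-/- replicate 4 had the highest gap of the 8 arrays in 13 of 17 members and in 13.6% of other genes. Card9-/- replicate 1 or 3 had the lowest in 13 of 17 and in 44.7% of other genes. Between genotypes the gap passed in 0 of the 17 members, as in 0% of all 1317 genes (limma, adjusted p over the 1317). It was lower in Card9-/- in 14 members against 66.2% of all, with 2 of 17 lower at an unadjusted p under 0.05 (Rpl13 and Rps3) against 7.21%. The 1 member with a higher gap at that level, against 2.05% of all, was Rps24 (0.91, SE 0.29, adjusted p = 0.536). In replicate order, the other Rps24 probe gave 2.63, 4.23, 2.41 and 6.23 in Card9-/-, against 5.38 to 5.76 in wt. The part of RNA quality, labelling or slide in these gaps was not tested.

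The same array pattern was seen over all member probes of the class, which include the end probes above. Their median deviations from a probe's own mean were 0.50, 0.40, 0.89 and -0.14 in wt. In Card9-/- they were -0.91, -0.37, -1.01 and 0.65. The 33 member probes with the hexamer, 19.9% of those tested against 10.9% for other genes, had a median difference of -0.82. The 133 without it had one of -0.40. Probes of other genes had medians of -0.27 with the hexamer and -0.027 without it. Restricted to probes without the hexamer, the genotype difference was negative for 69 of 71 members that still had a probe, with a median of -0.38 against -0.059 for all genes read this way. Of all those genes, 54.4% were lower. With the probe nearest the 5' end of a RefSeq mRNA the members' median was -0.38, and with the one nearest the 3' end it was -0.59.

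Probes placed on other transcript models of member genes followed a further pattern. The 18 tested member probes on Ensembl transcripts had median deviations of 0.69 and 0.68 in wt replicates 1 and 2, and -0.34 and -0.45 in wt replicates 3 and 4. Probes of other genes on Ensembl transcripts were likewise high in wt replicates 1 and 2 and low in 3 and 4 (0.39, 0.36, -0.35 and -0.18). Wt replicates 1 and 2 are also those with the lowest macrophage markers. Of the 5 members named for probes that differed in sign by over 1 unit, 4 held such a probe, and it was the one with a positive difference. In Rpl13, of the large subunit, the probe chosen differed by -0.89 (SE 0.43, adjusted p = 0.717), the end probe by -2.14 and a dim Ensembl probe by 0.29. In Rps20 the probes gave -0.97, -0.91 and 0.35. In Rps19, mutated in human Diamond-Blackfan anaemia, they ran from -0.88 to 0.33, and in Rpl7 from -1.15 to 0.20. Rps12 was read by 2 probes, of which the brighter differed by -0.51 and the dimmer, on another cDNA, by 1.24. With the slide as a block the probes chosen gave 0.027 for Rpl13, 0.48 for Rps20, 0.32 for Rps19 and 0.57 for Rps12. These values rest on Card9-/- replicate 4 alone. With quantile normalization Rpl7 gave 0.23.

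The start sites were examined because the members share a way of translation control. RefSeq promoter windows (GRCm38.p6) were found for 60 of the 81 genes. The pyrimidine run CTTTCC lay within the 15 bases on either side of the start, on the transcribed strand, in 10 of the 60 genes (16.7%) and in 1.64% of 26965 other genes. CTCTTT, which overlaps it in some windows, was in 8 genes (13.3%) against 1.31%. On the opposite strand the 2 runs were in 0 and 1 of the 60 genes. The windows of 2 genes with the run and of Rps27l without it are shown, 30 bases 5' to 3' with CTTTCC in capitals, from chromosome 7 (4792950 to 4792979), chromosome 3 (90213634 to 90213663) and chromosome 9 (66946071 to 66946100).
Rpl28: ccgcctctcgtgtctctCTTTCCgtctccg
Rps27: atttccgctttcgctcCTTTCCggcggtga
Rps27l: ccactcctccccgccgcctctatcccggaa
These letters describe the windows and say nothing about binding or control in these samples.

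Genes around the ribosome were compared from lists. All 7 ribosomal protein genes outside the rule were lower (median difference -0.34), among them X-linked Rps4x (-0.84, SE 0.32, adjusted p = 0.617), Rpl36a and the small subunit scaffold Rack1 (-0.66, adjusted p = 0.789). Of 18 translation factors and other genes listed as having mRNAs with the pyrimidine motif, 17 were lower (median -0.41) and 0 passed. Btf3 and Naca, which form the nascent polypeptide-associated complex, differed by -0.96 and -1.02 (adjusted p of 0.603 and 0.611), and the elongation factor Eef1a1 by -1.22 (adjusted p = 0.696). Of 29 initiation factors 25 were lower (median -0.27), with Eif5a at -1.29 and Eif2s1, the alpha subunit of eIF2, at -1.07 (adjusted p of 0.612 and 0.617). No gene of these lists passed the threshold.

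The lists of assembly factors, RNA polymerase I and control of ribosomal protein mRNA lay closer to the median of all genes (-0.088). Of 38 assembly factors 26 were lower (median -0.083), led by Nhp2, a protein of box H/ACA particles, at -0.99 (adjusted p = 0.572), while the kinase Riok1 was higher by 0.70 (adjusted p = 0.704). Of 13 genes of RNA polymerase I and its factors 9 were lower (median -0.13), with Polr1d at -0.84 (adjusted p = 0.672). Of 22 genes that control ribosomal protein mRNA 14 were lower (median -0.10), led by the mTOR activator Rheb at -1.23 (adjusted p = 0.742). The per-array means of the assembly factors were 3.51, 3.42, 2.58 and 2.67 in wt, so that wt replicate 3, where the ribosomal protein genes were highest, had the lowest wt value. Among 75 mitochondrial ribosomal protein genes, which serve the separate ribosome of mitochondria, 63 were lower (median -0.24), with Mrpl39 at -1.28 and Mrps36 at -1.06 (adjusted p of 0.614 and 0.638). None of these lists held a gene past the threshold, and differences between lists were not tested.

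**Figure D5:**
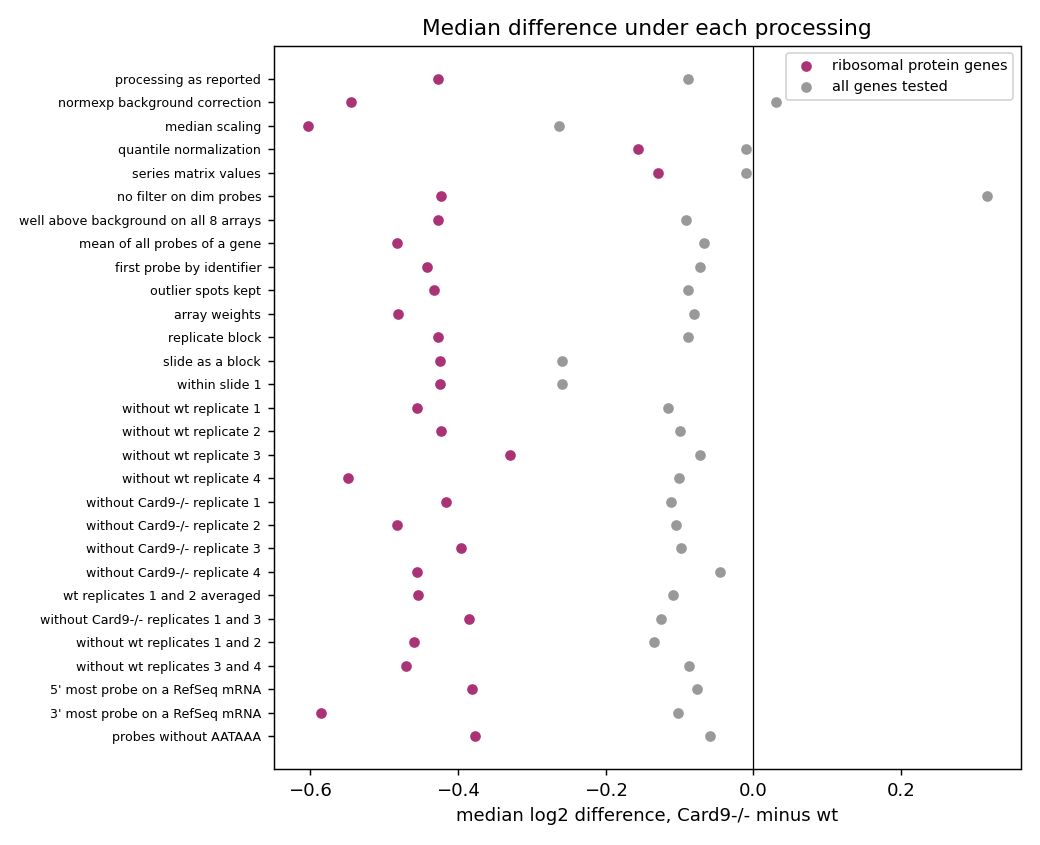
Median log2 difference between genotypes (x axis) of the ribosomal protein genes and of all genes tested, for each processing (y axis). The members' median is negative throughout, from -0.60 with median scaling to -0.13 in the series matrix, and lies left of the median of all genes in each row.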

How the data were processed

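Per the file headers, the deposited intensity values were read and background-subtracted by Agilent Feature Extraction 10.7.1.1 and left unscaled between arrays. A series matrix from the authors gives log2 values whose making is otherwise not given in the sources used here, and served as an alternative in its 49669 aligned rows. In the other 7076 rows, 60.0% of values misfitted their own probe identifier and 0% the next one. All 8 columns correlated best with intensity values of their own genotype, but only 2 with those of their own replicate number. Replicate numbers here are those of the intensity values. Levels were log2 processed signals minus the 75th percentile over 59305 non-control spots. Outlier spots were set to missing, repeated spots averaged, probes kept if 3 or more of the 4 arrays of a group were well above background, and the brightest probe taken per gene (18606 genes). The comparison used limma 3.58.1 (R 4.3.3), two-sided, with Benjamini-Hochberg adjustment over all genes at 0.05. The fit was tested on simulated data. It recovered 60 of 100 genes changed by 3 log2 units and 91 of 100 changed by 6, with 8 false calls. These changes were larger than the difference of any member, so recovery at the size seen in members is not known. The number of arrays limits the precision.

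Members, lists and tests were chosen with earlier results of these data known. Named were the 12 members with the smallest p, the 5 with the highest and the 5 with the lowest mean, relatives and their namesakes, up to 6 whose probes differ in sign, untested members and up to 3 genes of each list. Values of 2 members under this rule are not reported here. Coordinates are those of the files (mm9). For 6 probes of Rpl13, Rps27 and Rps29 the file's chromosome differs from the gene table's (GRCm38.p6). Replicate numbers did not pair samples (correlations of -0.28 to 0.25). The probe classes and the alternatives that leave out 2 arrays or read certain probes were chosen after seeing the data.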

Additional observations from a re-analysis of the deposited data

Results flagged for a closer look

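In 56 groups of 4 arrays, those of the members' mean level and of each tested member named, 2 held an array far from the other 3. Chance gives about 1 in 20 groups, so 2 of 56 are no more than chance would give. Rps12 had a level of 9.25 in Card9-/- replicate 4, against 7.74, 7.84 and 7.84 in the other Card9-/- arrays. Rps27l had a level of 3.75 in Card9-/- replicate 2, against 2.67, 2.65 and 2.54 in the others.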

How the results depend on the processing

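The number of members past the threshold, 0, was the same under 27 of 28 alternatives. With array weights it was 5 of 79 (Rpl13, Rpl17, Rpl32, Rpl4 and Rps27l, adjusted limma p of 0.037 to 0.045). Of all genes 1176 of 18606 were then called, about the same share. The count over all genes, 5, was 0 for genes well above background on all 8 arrays, 0 with a slide block and 0 within slide 1. The last pair rests on Card9-/- replicate 4 alone. It was 3 with the replicate number as a block. There, 3 members instead of 8 were lower at an unadjusted p under 0.05, and 639 instead of 854 of all genes. The count of genes past the threshold was also 3 without Card9-/- replicates 1 and 3, and 430 without wt replicates 1 and 2. Leaving out 1 array gave 5 to 6 genes, 0 members, 72 to 79 members lower and a mean difference of -0.65 to -0.39. Of all genes, 52.8% to 57.8% were then lower. The mean difference was -0.19 with quantile normalization and -0.19 in the series matrix, where 48 of 77 members were lower. The median of all genes moved by -0.18 with median scaling, 0.12 with normexp, -0.17 with the slide as a block and 0.40 without a filter on dim probes. The mean difference was negative under all 28 alternatives.

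Of 748 values of named genes under alternatives, 48 changed sign, in 17 of 27 genes. With a slide block, and equally within slide 1, these were Rpl13 (0.027), Rpl13a (0.069), Rpl37a (0.29), Rpl41 (0.70), Rps12 (0.57), Rps18 (0.15), Rps19 (0.32), Rps20 (0.48), Rps25 (0.13) and Rps27 (0.17). With quantile normalization they were Rpl22 (0.13), Rpl3 (0.23), Rpl41 (0.017) and Rpl7 (0.23), and in the series matrix Rpl22 (0.036), Rpl3 (0.26), Rpl41 (0.029) and Rpl7 (0.28). With normexp they were Rpl37 (0.22) and Rpl39l (0.13). Averaging all probes of a gene it was Rps12 (0.37), and with the first probe Rpl13 (0.29), Rps12 (1.24) and Rps20 (0.35). With array weights they were Rpl39l (0.022) and Rps4l (0.21). Without Card9-/- replicates 1 and 3 it was Rpl41 (0.13). Without wt replicates 1 and 2 they were Rpl41 (0.016), Rpl7 (0.0091) and Rpl7l1 (0.072), and without wt replicates 3 and 4 Rpl39l (0.16) and Rps4l (0.19). With the 5' most probe it was Rpl3 (0.034), and with probes without the hexamer Rps20 (0.35). Leaving out 1 array gave -0.31 to 0.076 for Rpl41 and -0.73 to 0.11 for Rps4l. The cause of these changes was not tested.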
